A study of Mus musculus with 12 samples.

Results

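The genes described here are the nuclear genes for the subunits of the mitochondrial respiratory chain and ATP synthase. They were taken by gene symbol: Nduf genes other than the Ndufaf assembly factors for complex I, Sdha to Sdhd for complex II, Uqcr genes and Cyc1 for complex III, the lettered Cox4 to Cox8 subunits for complex IV, and Atp5 genes for complex V. Each gene was read by its brightest probe set among those with a single symbol. This gave 83 of the 18194 genes on the array, of which 36 belonged to complex I, 4 to complex II, 9 to complex III, 17 to complex IV and 17 to complex V. A filter on dim probe sets left 79 of them among 13010 genes tested. The 4 that did not pass were Cox4i2, Cox7b2, Cox8c and Ndufb4, whose mean log2 signals of 2.50, 2.41, 1.46 and 2.28 lay below the 40th percentile of the table (2.76).

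Complexes I and II pass electrons from NADH and succinate to ubiquinone, complex III passes them on to cytochrome c, and complex IV hands them to oxygen. Complexes I, III and IV pump protons across the inner membrane, and complex V, the ATP synthase, uses that gradient to make ATP. Most subunits are encoded in the nucleus, and several complex IV subunits exist as a heart and muscle isoform beside a more widely expressed one. Oxidative fibres hold more mitochondria than fast glycolytic fibres.

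Soleus and tibialis anterior (TA) muscle came from mice at 4 weeks of age, either wild type (WT) or knockout (KO) for H6pd, the hexose-6-phosphate dehydrogenase of the endoplasmic reticulum. The study set soleus beside TA because their fibre types and metabolism differ, and it describes the mice as weaned and free of overt myopathy. Genotype and muscle gave 4 groups of 3 arrays each, which the labels call biological replicates, and this number limits the precision of every value. The labels used here state neither the strain nor the deleted part of H6pd, nor whether 1 mouse gave both muscles of a replicate number.

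Before any result, 4 arrays need mention. The arrays numbered 3 stood apart from the others in all 4 groups, between -33.9 and -23.7 on the second principal component (18.6% of the variance) against 5.77 to 21.9 for the other 8. Every group held a single such array. The 3' to 5' log2 ratio of the actin control probe sets, a sign of RNA quality, was 0.92 to 1.03 on these 4 arrays and 0.58 to 0.80 on the other 8, and its part in the results was not tested. For the members, counts of calls and the medians that move are also given without these arrays, as are several isoform values that move. Myosin and troponin genes of slow fibres separated the muscles, with mean log2 levels of the 10 slow fibre markers between 13.85 and 14.21 on soleus arrays and between 6.38 and 8.88 on TA arrays. H6pd itself did not settle the genotype: its probe set differed by -1.36 (SE 0.62, limma adjusted p = 0.577) between KO and WT soleus and by 0.11 (SE 0.62, adjusted p = 0.966) in TA, and the labels do not place it inside or outside the deletion. All values come from whole muscle, in which fewer cells of a type and less RNA per cell cannot be told apart.

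Promoters of the members on which the knockout comparisons turn are shown here, from RefSeq on build GRCm38.p6, as 250 bases before to 50 after the annotated start. Ndufa3, Ndufa13, Cox5b and Atp5j2 were lower in KO TA past the test, and Cox7a2l is the member whose KO arrays lay above the WT arrays in both muscles. Ndufa2 was also lower past the test. Capitals mark an exact match to a motif searched on both strands, which was the TATA box motif TATAAA in Ndufa3 and the YY1 core AAGATGGCG in Atp5j2.
Ndufa3 promoter (chr7:3617123-3617422, plus strand): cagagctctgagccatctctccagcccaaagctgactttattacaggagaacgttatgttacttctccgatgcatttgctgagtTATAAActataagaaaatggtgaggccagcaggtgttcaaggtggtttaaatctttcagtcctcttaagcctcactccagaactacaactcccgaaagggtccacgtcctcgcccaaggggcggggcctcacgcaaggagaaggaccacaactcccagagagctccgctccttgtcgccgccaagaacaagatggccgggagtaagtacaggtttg
Ndufa13 promoter (chr8:69901971-69902270, minus strand): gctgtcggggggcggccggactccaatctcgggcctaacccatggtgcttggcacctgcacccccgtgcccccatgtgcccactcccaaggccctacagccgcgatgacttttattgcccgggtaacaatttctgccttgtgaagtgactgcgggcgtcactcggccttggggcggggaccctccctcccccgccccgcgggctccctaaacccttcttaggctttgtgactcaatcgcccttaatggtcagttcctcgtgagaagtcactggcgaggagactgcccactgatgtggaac
Cox5b promoter (chr1:36691237-36691536, plus strand): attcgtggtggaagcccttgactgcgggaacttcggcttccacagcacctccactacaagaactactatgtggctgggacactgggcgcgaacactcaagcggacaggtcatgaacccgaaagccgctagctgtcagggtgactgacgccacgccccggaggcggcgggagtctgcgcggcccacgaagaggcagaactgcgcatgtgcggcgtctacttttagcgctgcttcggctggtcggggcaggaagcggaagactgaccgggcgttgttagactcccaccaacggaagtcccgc
Atp5j2 promoter (chr5:145191492-145191791, minus strand): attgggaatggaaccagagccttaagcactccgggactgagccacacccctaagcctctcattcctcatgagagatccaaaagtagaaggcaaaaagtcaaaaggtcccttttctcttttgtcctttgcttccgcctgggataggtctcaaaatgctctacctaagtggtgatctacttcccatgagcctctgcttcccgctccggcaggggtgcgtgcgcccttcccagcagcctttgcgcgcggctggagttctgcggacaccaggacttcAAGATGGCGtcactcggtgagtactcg
Cox7a2l promoter (chr17:83514284-83514583, minus strand): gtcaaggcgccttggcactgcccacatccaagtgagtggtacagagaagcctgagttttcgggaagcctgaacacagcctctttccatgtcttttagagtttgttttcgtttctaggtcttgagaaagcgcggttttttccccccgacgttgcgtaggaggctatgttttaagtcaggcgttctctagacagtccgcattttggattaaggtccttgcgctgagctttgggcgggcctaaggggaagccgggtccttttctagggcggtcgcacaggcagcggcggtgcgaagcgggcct

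The match in Ndufa3 began at base 85 of the 300, counted from the 5' end as printed, and the match in Atp5j2 at base 274, just after the start. The windows of Ndufa13, Cox5b and Cox7a2l held none of the 5 motifs searched. Of the 83 members, 67 had a promoter in the RefSeq table. GCATGCGC, the core of the NRF1 site, occurred in 9 of these 67 (13.4%) against 3.05% of the 27025 genes in the table. AAGATGGCG occurred in 6 (8.96% against 1.64%), which were Ndufa9, Ndufc1, Ndufs4, Ndufs7, Atp5j and Atp5j2. CCGGAAGT, the core of the GABPA site, occurred in 5 (7.46% against 4.31%), TCAAGGTCA, the core of the ERR site, in 2 (2.99% against 0.466%), and TATAAA in 8 (11.9% against 15.7%). NRF1, GABPA, ERR and YY1 are known as activators of nuclear genes for mitochondrial proteins. These shares describe letters in a window and say nothing of binding in these muscles.

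Respiratory chain genes gave bright signals. Their median level over the 12 arrays was log2 13.98, at a median percentile of 99.0 among all genes tested, whose own median was 6.76, and 74 of the 79 had a mean above 12. The 5 others were Cox8a (8.24), Ndufb1 (6.97), Cox7c (5.24), and Ndufa4l2 (2.91) and Cox6b2 (2.85), which lay at the floor of the table. The brightest was Cox6b1 at 15.50. Such levels are not comparable between genes, since each probe set has its own response.

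The mean log2 level of the 79 genes was 13.30, 13.34 and 13.19 on the 3 KO soleus arrays and 13.42, 13.53 and 13.51 on the WT soleus arrays. In TA it was 13.32, 13.27 and 13.34 on KO arrays and 13.45, 13.44 and 13.55 on WT arrays. In both muscles every KO array thus lay below every WT array, by small amounts. The same separation held for complex I, III and V in both muscles. Complex IV means overlapped between genotypes in both muscles (12.37 to 12.49 against 12.45 to 12.52 in soleus, and 12.25 to 12.38 against 12.27 to 12.40 in TA). Complex II means lay lower in KO soleus (13.15 to 13.28 against 13.29 to 13.55), while in TA they overlapped (13.38 to 13.50 in KO against 13.28 to 13.43 in WT).

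**Figure D1:**
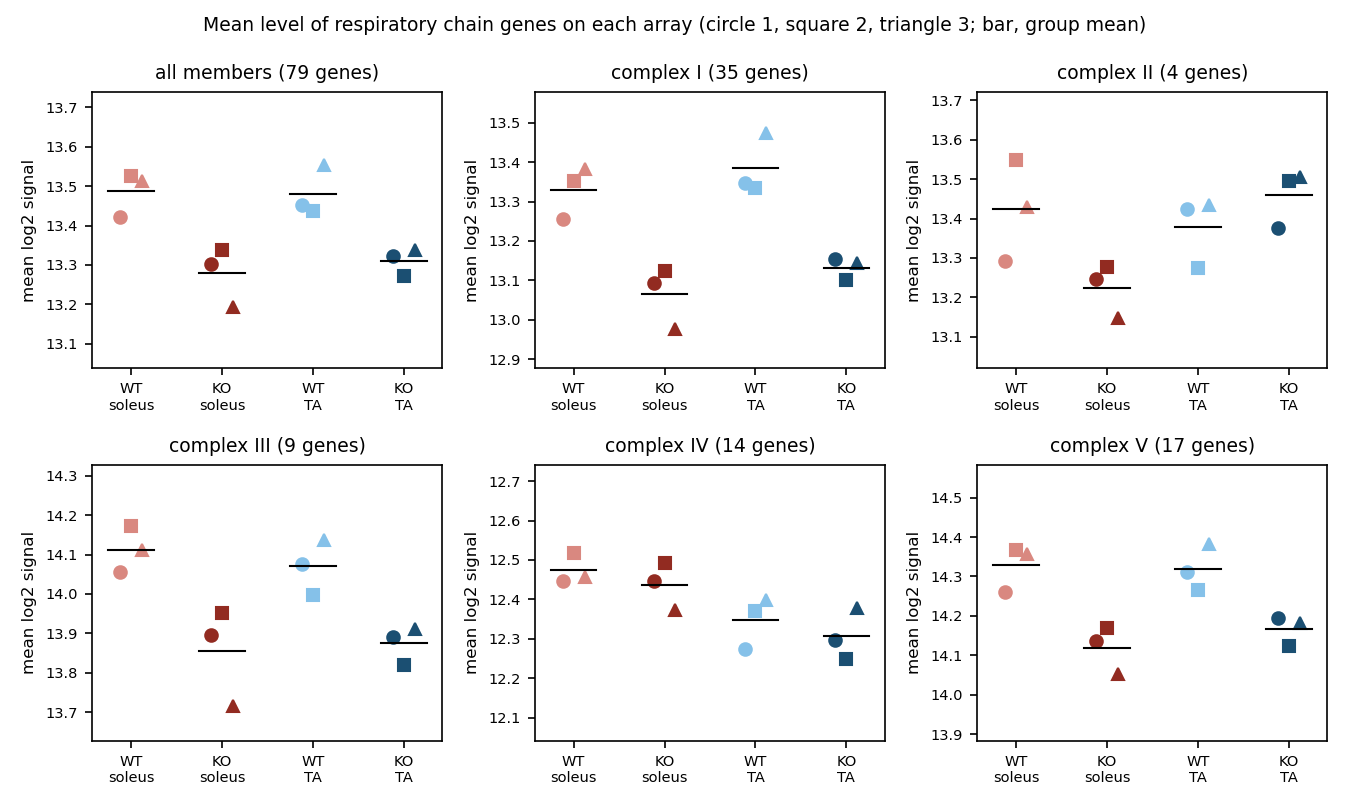
Mean log2 signal of the respiratory chain genes on each of the 12 arrays, for all 79 genes and by complex; symbols give the replicate number and bars the group mean. KO arrays lie below WT arrays of the same muscle for all members (13.19 to 13.34 against 13.42 to 13.53 in soleus), but overlap with them for complex IV.

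The comparison of KO with WT TA asks what loss of H6pd did in the mostly fast muscle. Past the test, Ndufa2, Ndufa3 and Ndufa13 of complex I fell, together with Cox5b of complex IV and Atp5j2 of complex V. These were 8.57% of the 35 complex I genes, 7.14% of the 14 of complex IV and 5.88% of the 17 of complex V. In all, 5 of the 79 members passed (6.33%), all of them lower, where 2.83% of all genes tested passed in either direction and 1.41% were lower. The median difference of the members was -0.16 against -0.00 for all genes (all differences are log2, KO minus WT), and 66 of 79 had a lower mean, against 51.4% of all genes. An unadjusted p under 0.05 was found for 33 members, against 17.1% of all genes. On 39 members the KO arrays lay below all WT arrays, against 12.5% of all genes, and on 3 (Cox7a2l, Ndufc2 and Sdhd) they lay above, against 10.7%.

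Ndufa2 is an accessory subunit of the matrix arm of complex I, near the site where NADH is oxidised. Its log2 signal was 13.26, 12.98 and 13.21 in KO TA and 13.66, 13.59 and 14.06 in WT TA. The groups did not overlap, and WT replicate 3 stood highest. Ndufa2 fell by 0.62 (SE 0.13, adjusted p = 0.0348), or 1.53-fold, and in soleus the difference was -0.41 (adjusted p = 0.331), again without overlap.

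Ndufa3, a small accessory subunit of the membrane arm, measured 14.05, 13.97 and 14.07 in KO TA against 14.52, 14.32 and 14.74 in WT TA. It fell by 0.50 (SE 0.11, adjusted p = 0.0447). A second bright probe set differed by -0.49 (adjusted p = 0.0541), while a dim one with a mean of 3.89 differed by 0.40 (adjusted p = 0.116). The bright pair thus gave the same size on both sides of the threshold.

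Ndufa13, also called GRIM-19, sits where the matrix and membrane arms of complex I meet. Its 3 KO TA arrays read 14.13, 14.14 and 14.13, and its WT TA arrays 14.42, 14.48 and 14.53. The spread within both groups was small beside the gap between them. Ndufa13 fell by 0.34 (SE 0.07, adjusted p = 0.0355).

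Cox5b is a zinc-binding subunit on the matrix side of cytochrome c oxidase. Signals were 14.72, 14.65 and 14.61 in KO TA and 15.00, 15.12 and 14.93 in WT TA, a fall of 0.36 (SE 0.08, adjusted p = 0.0403). Cox5b had 6 probe sets. The other 3 bright ones were lower by -0.43, -0.40 and -0.35 in TA, with adjusted p = 0.0263, 0.0368 and 0.0714 when each probe set was tested in its own right. All 4 bright readings of Cox5b thus pointed down, whereas Ndufa2 and Ndufa13 had a single probe set each.

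Atp5j2 encodes subunit f, in the membrane sector of ATP synthase. Its KO TA signals were 14.41, 14.32 and 14.37 and its WT TA signals 14.68, 14.64 and 14.69. It fell by 0.30 (SE 0.06, adjusted p = 0.0346), while a second bright probe set differed by -0.15 (adjusted p = 0.509).

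**Figure D2:**
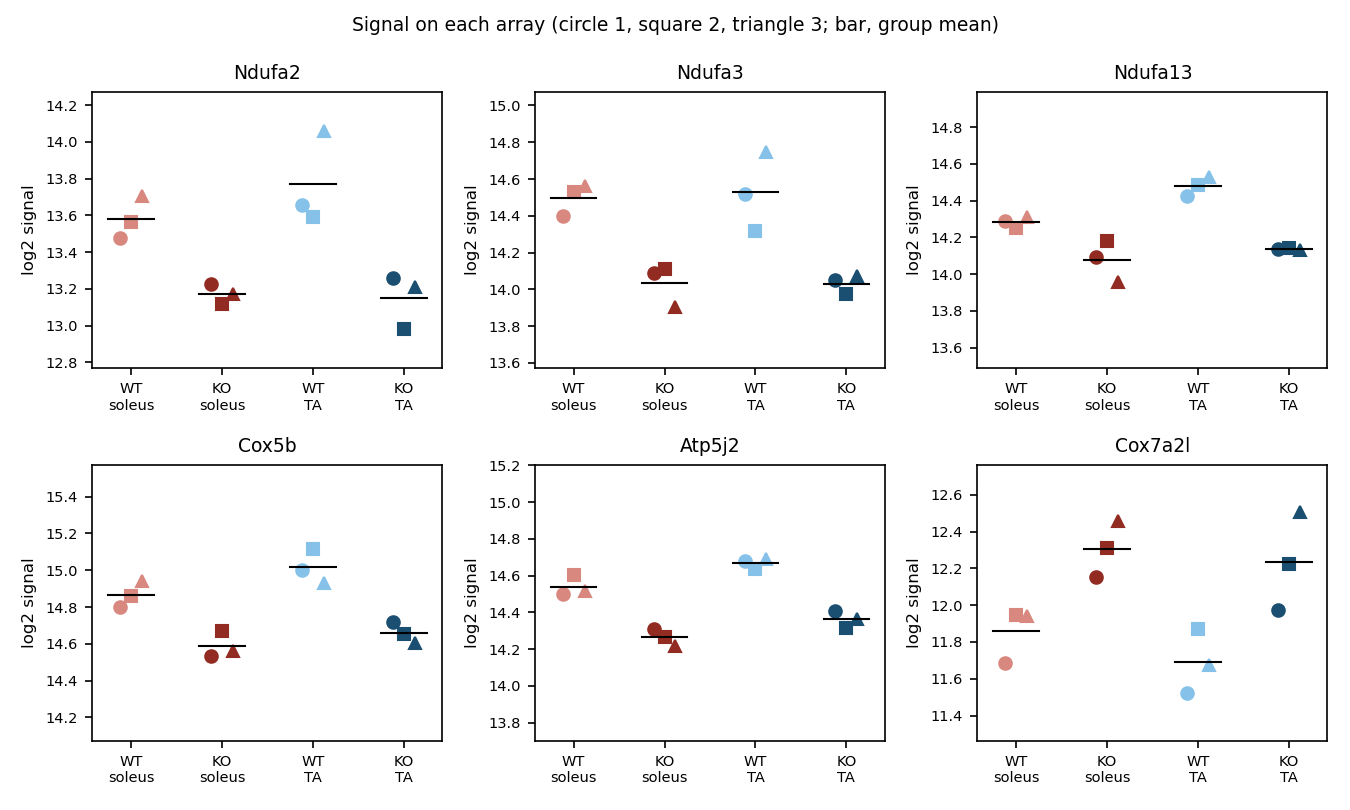
Log2 signal on each array of the 5 members past the test in TA and of Cox7a2l; symbols give the replicate number, bars the group mean, and all panels span the same log2 range. KO arrays lie below WT arrays of the same muscle for the first 5 genes and above them for Cox7a2l.

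These 5 calls lay near the threshold, with adjusted p between 0.0346 and 0.0447, and their count moved with the arrays used. A single member passed with the table as deposited, where 2.81% of all genes passed. None did with each array centred on its median, where 3.15% of all genes passed, or when only the TA arrays were fitted, where 0.0307% passed. No member passed without KO soleus replicate 1, where 2.28% of all genes did. None passed without KO TA replicate 2 (0.653% of all genes), KO TA replicate 3 (0.899%) or WT TA replicate 1 (1.37%). A single member passed without KO soleus replicate 2 (2.03%), WT soleus replicate 2 (1.93%) or WT TA replicate 3 (1.86%). Without WT TA replicate 2 the count was 2 (1.56%), and without WT soleus replicate 3 it was 3 (2.36%). Without the 4 arrays numbered 3, none passed, against 0.43% of all genes; the differences were then -0.50 for Ndufa2, -0.41 for Ndufa3, -0.31 for Ndufa13, -0.37 for Cox5b and -0.30 for Atp5j2, and 60 of 79 members had a lower mean. With the replicate number as a block, a pairing that the labels do not give, 11 members passed, against 7.01% of all genes. These were the 5 above, Atp5k, Atp5o, Ndufb1, Ndufb2 and Ndufv3, all lower, and Cox7a2l, which was higher. With limma's array weights, which give scattered arrays less say, 9 passed, against 3.96% of all genes.

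Most members that did not pass had a lower mean too. In complex I, 33 of 35 had a lower mean in KO TA, with a median of -0.26. Ndufb1, a subunit of the membrane arm, had the largest difference of all members (-0.81, SE 0.21, adjusted p = 0.0769). It was read as 6.36, 6.61 and 6.70 in KO TA against 7.17, 7.03 and 7.91 in WT TA, without overlap. All 6 core subunits measured, which bind the flavin or the iron-sulfur clusters or lie beside them, had negative differences that did not pass: Ndufs1 -0.48, Ndufs3 -0.17, Ndufs7 -0.20, Ndufs8 -0.26, Ndufv1 -0.08 and Ndufv2 -0.11. The 2 with a higher mean were Ndufc2 (0.11), whose KO arrays lay above the WT arrays, and Ndufa4l2 (0.21), at the floor.

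Complex II gave mixed signs in TA. Sdhd and Sdhc, which anchor succinate dehydrogenase in the membrane, differed by 0.29 (SE 0.16, adjusted p = 0.385) and 0.17 (SE 0.09, adjusted p = 0.387). Sdha, the flavin subunit, and Sdhb, the iron-sulfur subunit, differed by -0.04 and -0.10. In complex III, 8 of 9 had a lower mean, with a median of -0.15. Uqcr11, a small subunit, differed by -0.50 (SE 0.18, adjusted p = 0.185), or -0.30 without WT TA replicate 3, and Uqcrfs1, the Rieske iron-sulfur protein, by -0.30 (SE 0.16, adjusted p = 0.373).

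In complex V, 13 of 17 had a lower mean, with a median of -0.11. Besides Atp5j2, Atp5k (subunit e) stood at -0.46 (adjusted p = 0.0694), Atp5o (the OSCP subunit of the stalk) at -0.33 (adjusted p = 0.0539), Atp5e (subunit epsilon of the central stalk) at -0.30 (adjusted p = 0.249) and Atp5j (factor 6 of the peripheral stalk) at -0.29 (adjusted p = 0.0641). The Atp5e difference leaned in part on WT TA replicate 3, at 14.52 beside 14.13 and 14.02 on the other WT arrays. Its KO TA arrays ran from 13.81 to 14.02, so the groups met. Subunits of the catalytic head gave values near 0, with Atp5a1 at 0.04 (SE 0.08) and Atp5b at 0.06 (SE 0.07). So did Atp5c1, subunit gamma of the central stalk (0.00, SE 0.06), Atp5pb of the peripheral stalk (0.07) and Atp5l of the membrane sector (-0.02). The c-ring genes Atp5g1, Atp5g2 and Atp5g3 stood at -0.10, -0.08 and -0.16.

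**Figure D3:**
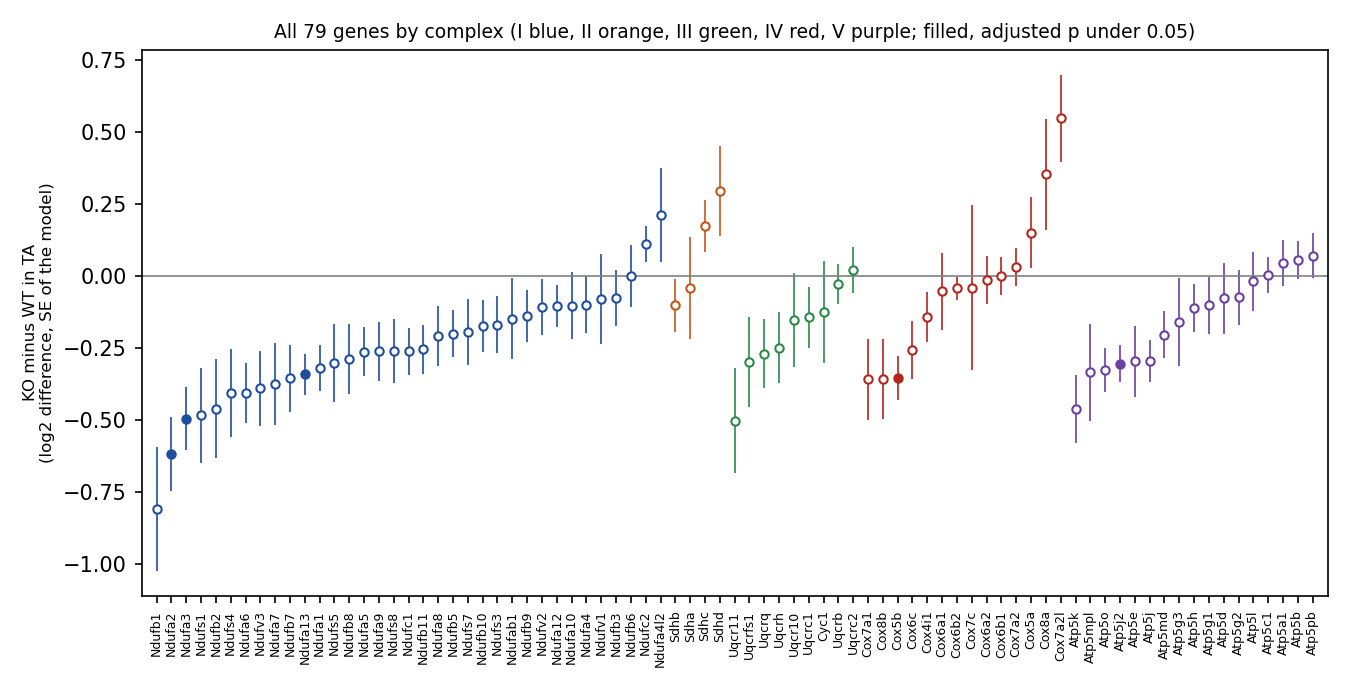
KO minus WT difference in TA of all 79 genes, grouped by complex and sorted within it; points are log2 differences, lines the standard error of the model, and filled points passed the test. Most complex I points lie below 0, from -0.81 for Ndufb1, whereas Sdhc and Sdhd lie above 0 and complex IV runs from -0.36 for Cox7a1 to 0.55 for Cox7a2l.

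Complex IV held members of both signs. In TA, 10 of its 14 members had a lower mean, with a median of -0.04. Cox7a2l, a relative of Cox7a that is known to link complexes III and IV into supercomplexes, went the other way. It measured 11.97, 12.22 and 12.51 in KO TA against 11.52, 11.87 and 11.68 in WT TA, a difference of 0.55 (SE 0.15, adjusted p = 0.0873). In soleus it measured 12.15, 12.31 and 12.46 against 11.69, 11.95 and 11.94, a difference of 0.45 (SE 0.15, adjusted p = 0.379). The groups did not overlap in either muscle. Its other probe sets differed by 0.67 (adjusted p = 0.0385) and 0.66 (adjusted p = 0.0637) in TA, and by 0.41 and 0.46 in soleus. With the mean of all its probe sets in place of the brightest, Cox7a2l passed the test in TA.

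The isoform pairs of complex IV differed in their pattern. Cox7a1, the heart and muscle form, stood at -0.36 in TA (SE 0.14, adjusted p = 0.223) and -0.45 in soleus (SE 0.14, adjusted p = 0.335), with no overlap in either muscle. Its counterpart Cox7a2 differed by 0.03 in TA and by 0.12 in soleus (adjusted p = 0.694), where KO arrays (14.56 to 14.63) lay above WT arrays (14.45 to 14.49). Cox8b, the muscle form of subunit 8, differed by -0.36 in TA and -0.34 in soleus, again without overlap. In TA the gap was narrow, with Cox8b at up to 14.315 on KO arrays and from 14.323 on WT arrays. For Cox7a1 these values were 14.24 and 14.27. Cox8a differed by 0.35 in TA and 0.26 in soleus. None of these single differences passed the test, and several rested on arrays numbered 3. Without these 4 arrays Cox8a differed by 0.098 in TA and 0.081 in soleus, and Cox8b by -0.23 in TA. Without WT TA replicate 3 alone, the TA difference was -0.19 for Cox7a1 and -0.21 for Cox8b.

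The third pair differed little. Cox6a2, the muscle form of subunit 6a, differed by -0.01 in TA and -0.06 in soleus, and Cox6a1 by -0.05 and -0.03. Their standard errors were 0.08 for Cox6a2 and 0.13 for Cox6a1. Cox4i1, the common form of subunit 4, differed by -0.14 in TA and -0.30 in soleus (adjusted p = 0.299), while Cox4i2 lay under the filter. Cox6b1 differed by 0.00 in TA and -0.10 in soleus, beside Cox6b2 at the floor. Ndufa4, listed here with complex I by its symbol but known today as a complex IV subunit, differed by -0.10 and -0.19.

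**Figure D4:**
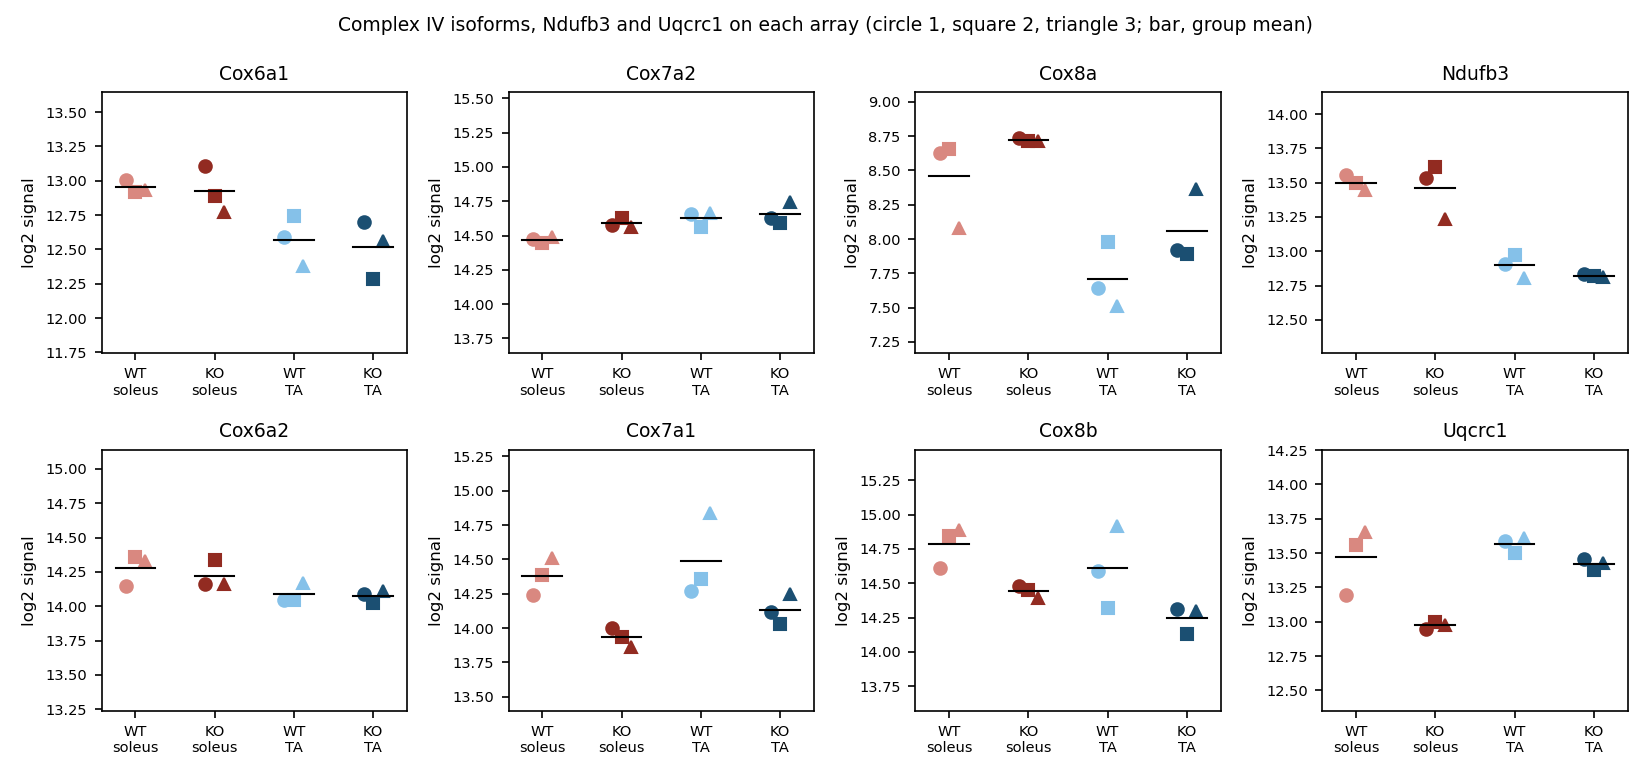
Log2 signal on each array of 3 complex IV isoform pairs (upper row the widely expressed form, lower row the muscle form) and of Ndufb3 and Uqcrc1; symbols give the replicate number, bars the group mean, and all panels span the same log2 range. Cox7a1 and Cox8b lie lower on KO than on WT arrays of both muscles, and Ndufb3 lies higher in soleus (13.23 to 13.61) than in TA (12.81 to 12.98).

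The comparison of KO with WT soleus asks the same in the muscle rich in slow fibres. No member passed the test there, where 4 of all genes (0.0307%) did, although 38 of 79 had an unadjusted p under 0.05 against 8.76% of all genes. The median difference was -0.23, against 0.00 for all genes, and 69 of 79 members had a lower mean, against 48.9%. The KO arrays lay below all WT arrays on 41 members (6.08% of all genes) and above them on 3, which were Cox7a2, Cox7a2l and Cox8a (5.88%).

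The largest soleus differences in complex I were those of Ndufb1 (-0.56, SE 0.21, adjusted p = 0.468) and Ndufa6 (-0.50, SE 0.10, adjusted p = 0.169), an LYR-motif subunit of the matrix arm. Ndufa6 measured 12.25, 12.34 and 12.09 in KO and 12.60, 12.71 and 12.88 in WT. In complex III, Uqcrc1, a core protein of the complex, measured 12.95, 13.00 and 12.98 in KO soleus and 13.19, 13.56 and 13.66 in WT soleus. Its 3 KO arrays lay close together while the WT arrays were spread, and the difference was -0.50 (SE 0.11, adjusted p = 0.183). Uqcr11 stood at -0.47 (SE 0.18, adjusted p = 0.468).

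In complex V, 16 of 17 had a lower mean in KO soleus, with Atp5g1, a gene for the c-ring, at -0.39 (SE 0.10, adjusted p = 0.254) and Atp5k at -0.37 (SE 0.12, adjusted p = 0.351). All 4 complex II genes had a lower mean, among them Sdha (-0.29) and Sdhb (-0.23), with adjusted p = 0.769 and 0.473. Sdha stood at -0.14 without WT soleus replicate 3 and at -0.45 without WT soleus replicate 1. The medians by complex were -0.27 for complex I, -0.20 for complex II, -0.27 for complex III, -0.04 for complex IV and -0.22 for complex V. Without the 4 arrays numbered 3 the median of all members was -0.17, and 65 had a lower mean.

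With array weights 12 members passed in soleus, all lower, against 2.77% of all genes. They were Ndufa1, Ndufa3, Ndufa6, Ndufs3, Ndufs8, Uqcrc1, Cox4i1, Atp5b, Atp5g1, Atp5j, Atp5j2 and Atp5o. None of the 4 complex II genes was among them, but with 15.2% of all members past the test this absence cannot be read. Leaving out WT soleus replicate 1 gave 1 member past the test, against 0.231% of all genes.

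Across the muscles, 63 of 79 members (79.7%) had a lower mean in KO in both, against 30.4% of all genes, and 7 had a higher mean in both. On 30 members the KO arrays lay below the WT arrays in both muscles (38% against 2.6% of all genes), of which 18 belonged to the 35 of complex I, 2 to complex III, 5 to complex IV and 5 to complex V. Cox7a2l was the single member that lay above in both (2.42% of all genes). Over the 79 genes the soleus and TA differences had a Pearson correlation of 0.75, against 0.51 over all genes. This is a description across genes that share arrays and are not independent.

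**Figure D5:**
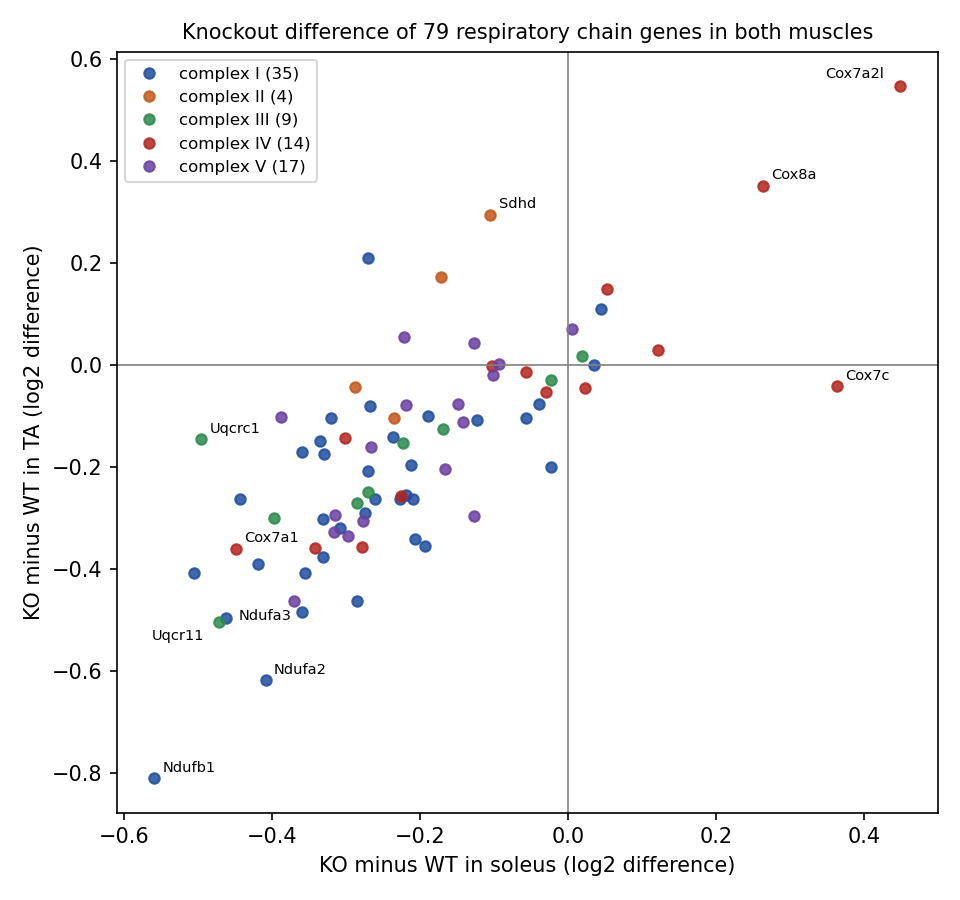
KO minus WT log2 difference of the 79 genes in soleus (x axis) and TA (y axis), coloured by complex. Most points lie in the lower left, where 63 genes had a lower mean in both muscles, and Cox7a2l and Cox8a lie at the upper right; without the arrays numbered 3 Cox8a would stand at 0.081 in soleus and 0.098 in TA.

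Other bright genes were centred near 0. Another 460 genes had a mean above log2 12; their median difference was 0.00 in soleus and 0.02 in TA, with 50.9% and 47.6% lower. The 74 members this bright had medians of -0.24 and -0.17, with 90.5% and 85.1% lower. With the table as deposited the members' medians were -0.24 and -0.16, and with each array centred on its median they were -0.26 and -0.12, while the other bright genes then stood at -0.04 and 0.08.

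Probe sets other than the brightest gave a similar picture with exceptions. Of 68 other probe sets with a mean above log2 5, 53 had the sign of the brightest in soleus and 53 in TA. Uqcr10, a small subunit of complex III, was the clearest disagreement: its brightest probe set differed by -0.22 in soleus and -0.15 in TA, whereas its others differed by 0.59 and 0.43 in soleus and by 0.71 and 0.36 in TA. The direction of Uqcr10 is therefore uncertain. A dimmer probe set of Ndufab1, the mitochondrial acyl carrier protein that is also a complex I subunit, opposed its brightest too (0.52 against -0.34 in soleus and 0.38 against -0.15 in TA), and 1 of Ndufb6 did in soleus (-0.31 against 0.03).

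Markers of other cells and of fibre type moved with some of these comparisons. All 8 endothelial markers had a lower mean in KO soleus (median -0.30, none past the test), with mean levels per array of 8.28 to 8.82 in KO and 8.68 to 9.06 in WT, and in TA 7 of 8 had a higher mean (8.53 to 8.68 against 8.36 to 8.55). Of the 10 slow fibre markers, 9 had a higher mean in KO TA (median 1.32, none past the test). Their mean level per array was 8.54 to 8.88 in KO and 8.07, 8.34 and 6.38 in WT. The value of 6.38 was that of WT TA replicate 3, so the difference leans in part on that array. Of the 11 fast fibre markers, 8 had a lower mean in KO TA (15.29 to 15.50 against 15.40 to 15.44), but Myh2, the myosin of oxidative fast fibres, rose by 1.64 (adjusted p = 0.011). In soleus 7 of 11 fast markers had a lower mean (13.47 to 14.58 against 14.14 to 14.85). There 5 of 10 slow markers had a higher mean and 5 a lower one, with a median of 0.02. Slow marker means per array were 14.10 to 14.21 in KO soleus against 13.85 to 13.99 in WT soleus. They leaned on Pln, which differed by 2.15, at 7.14 (SD 1.56) in KO and 4.99 (SD 0.55) in WT soleus. None of the tested markers of these 3 lists was near the floor. No marker of erythroid cells, smooth muscle and pericytes, fibroblasts, myeloid cells, adipocytes or Schwann cells passed in either KO comparison; all 7 fibroblast markers had a higher mean in KO TA (median 0.20) and all 5 myeloid markers in KO soleus (median 0.17). The part of fibre type and of other cells in the respiratory chain differences was not tested. The 3' to 5' log2 ratio of the Gapdh control probe sets ranged from -0.10 to 0.17 in KO soleus, -0.10 to 0.18 in WT soleus, -0.09 to 0.05 in KO TA and 0.03 to 0.19 in WT TA, so that KO and WT overlapped in both muscles.

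Whether the knockout difference itself differed between the muscles was tested as an interaction. No member passed (0.0384% of all genes did) and 3 of 79 had an unadjusted p under 0.05, against 5.71% of all genes. The median of soleus minus TA differences was -0.02, and 45 members were below 0, against 48.5% of all genes. The 4 complex II genes were all more negative in soleus, with a median of -0.29: Sdhd at -0.40 (SE 0.22, adjusted p = 0.896), Sdhc at -0.34 (SE 0.13, adjusted p = 0.816), Sdha at -0.25 and Sdhb at -0.13. Without WT soleus replicate 2 Sdhd stood at -0.26. Other members at the edges were Ndufa4l2 (-0.48) at the floor, Cox7c (0.41, SE 0.41), Uqcrc1 (-0.35, SE 0.15, adjusted p = 0.846), Atp5g1 (-0.28, SE 0.14, adjusted p = 0.871) and Atp5b (-0.28, SE 0.09, adjusted p = 0.728). Without the 4 arrays numbered 3, no member passed either (0.0615% of all genes did), and the complex II median was -0.26.

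Soleus and TA of WT mice were also compared, to see the chain in muscles of different metabolism. Their levels were close: the median difference (soleus minus TA) was -0.02, and 4 of 79 members passed the test (5.06%), against 10.8% of all genes. Of the 79, 42 had a lower mean in soleus, against 55.1% of all genes. Ndufb3, an accessory subunit of the membrane arm of complex I, measured 13.56, 13.50 and 13.45 in WT soleus and 12.91, 12.98 and 12.81 in WT TA. It was higher in soleus by 0.60 (SE 0.10, adjusted p = 0.00446), and it passed in each of the 23 alternatives tried. Cox8a was higher by 0.75 (SE 0.19, adjusted p = 0.0372) and Cox6b1, which faces the intermembrane space, by 0.25 (SE 0.07, adjusted p = 0.0381). Ndufa12, an accessory subunit of complex I, was lower in soleus, with a difference of -0.28 (SE 0.07, adjusted p = 0.0376).

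The other complexes held no call in WT muscle. Sdhd differed by 0.13 and Sdha by -0.08, and both changed sign when 1 array was left out (Sdhd without WT soleus replicate 2, Sdha without WT soleus replicate 1 or WT TA replicate 3). In complex III, Uqcrc2, the second core protein, differed by 0.22 (SE 0.08, adjusted p = 0.113) and Uqcrh, the hinge protein, by 0.18. In complex V, Atp5e differed by -0.18, or -0.032 without WT TA replicate 3, and Atp5l by 0.18, or 0.081 without WT soleus replicate 2. Of the isoform pairs, Cox6a1 differed by 0.38 (adjusted p = 0.0986) and Cox6a2 by 0.19 (adjusted p = 0.169), Cox7a1 by -0.11 and Cox7a2 by -0.16, and Cox8b by 0.17. Cox7a1 stood at 0.066 without WT TA replicate 3, and Cox8b at 0.032 without WT TA replicate 2. The count of 4 fell to 1 without KO soleus replicate 1 or 2 or WT soleus replicate 1 or 2. Of all genes, 5.4% to 9.44% then passed. It fell to 2 without any single TA array (6.52% to 10.4% of all genes). With the mean of all probe sets per gene it was also 2 (9.84%), but these were Ndufb3 and Cox6a1. Cox8a, Cox6b1 and Ndufa12 did not pass with that mean. With the replicate number as a block 5 members passed, against 18.2% of all genes, and with array weights 9, against 21.6%. Without the arrays numbered 3 Ndufb3, Cox8a and Ndufb5 passed (9.76% of all genes), and Cox6b1 and Ndufa12 did not.

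In KO mice the muscles differed in 2 members (2.53%, against 8.97% of all genes). Ndufb3 measured 13.54, 13.61 and 13.23 in KO soleus and 12.83, 12.82 and 12.81 in KO TA, a difference of 0.64 (SE 0.10, adjusted p = 0.00366) that passed in all 23 alternatives. Uqcrc1 measured 12.95, 13.00 and 12.98 in KO soleus against 13.46, 13.38 and 13.43 in KO TA and was lower in soleus, with a difference of -0.45 (SE 0.11, adjusted p = 0.03). In WT mice the Uqcrc1 groups overlapped (-0.10, adjusted p = 0.593), and the difference between these 2 values is the interaction given above, which did not pass. The median of all members was -0.06, and 49 had a lower mean in soleus, against 57.1% of all genes.

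Elsewhere in KO muscle, Cox7c (0.73, adjusted p = 0.153) and Cox8a (0.66, adjusted p = 0.0654) of complex IV were higher by mean in soleus. Sdha (-0.32), Sdhc (-0.27), Atp5d (-0.27) and Atp5g1 (-0.18) were lower by mean. Of the isoform pairs, Cox6a1 differed by 0.41 (adjusted p = 0.0944) and Cox6a2 by 0.15. Cox7a1 differed by -0.20, Cox7a2 by -0.06 and Cox8b by 0.19. Atp5g1 stood at -0.036 without the arrays numbered 3, and Atp5d at -0.16 without KO soleus replicate 1. With the replicate number as a block 4 members passed, namely Ndufb3, Uqcrc1, Ndufa12 and Ndufv3, against 16.9% of all genes, and with array weights 4, against 12.4%. Without the arrays numbered 3, Ndufb3 and Cox8a passed (8.24% of all genes) and Uqcrc1 did not. A single member passed without KO soleus replicate 1 or 2 or KO TA replicate 1 or 2, against 4.51% to 6.29% of all genes.

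Factors that build the complexes were examined beside the subunits. Of 49 assembly factors tested, 3 passed in KO TA (6.12%), against 2.83% of all genes. Cox18, which inserts a mitochondrially encoded subunit of complex IV into the membrane, rose by 0.68 (SE 0.10, adjusted p = 0.011). Cox20, a chaperone of the same subunit, fell by 0.71 (SE 0.12, adjusted p = 0.0144), and Uqcc2, an assembly factor of complex III, fell by 0.55 (SE 0.12, adjusted p = 0.0412). Their median was -0.07, and 27 of 49 had a lower mean. In soleus none passed, with a median of -0.18 and 34 of 49 lower by mean.

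Between the muscles 10 of 49 assembly factors passed in WT (20.4%, against 10.8% of all genes) and 8 of 49 in KO (16.3%, against 8.97%). In WT, Ndufaf6 (-1.11, adjusted p = 0.00475), Uqcc2 (-0.88, adjusted p = 0.00174) and Cox11 (-0.82, adjusted p = 0.0325) were lower in soleus, and Sdhaf4, an assembly factor of complex II, was higher (0.84, adjusted p = 0.00297). In KO the largest differences past the test were those of Ttc19 (-0.93), a complex III factor, Sdhaf4 (0.89), Cox11 (-0.84) and Ndufaf6 (-0.82).

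Of 25 genes for electron carriers and linked transporters, none passed in either KO comparison, with the smallest adjusted p at 0.289 in soleus and 0.0843 in TA. Their unadjusted p was under 0.05 for 6 in soleus and 4 in TA, against 8.76% and 17.1% of all genes. In soleus Coq3 (-0.53, adjusted p = 0.418), of ubiquinone synthesis, and Etfdh (-0.52, adjusted p = 0.289), which feeds electrons from fatty acid oxidation to ubiquinone, differed most. In TA Coq8a, a regulator of ubiquinone synthesis, differed by 0.85 (adjusted p = 0.0843) while Coq8b had signals near the floor, where its difference cannot be read. Between WT muscles 6 of 25 passed (24%, against 10.8% of all genes). Gpd2, the mitochondrial glycerol phosphate dehydrogenase of the glycerol phosphate shuttle, was lower in soleus (-2.79, adjusted p = 7.96e-05). Nnt (2.06, adjusted p = 8.93e-05), the transhydrogenase that makes mitochondrial NADPH, Coq8a (1.39, adjusted p = 0.00488) and Etfa (1.12, adjusted p = 0.00217) were higher. In KO 4 passed (16%, against 8.97%), with Gpd2 at -2.75, Nnt at 1.48, Etfa at 0.62 and Etfdh at 0.58.

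Among 30 regulators of mitochondrial gene expression, none passed in either KO comparison, and 6 in soleus and 5 in TA had an unadjusted p under 0.05, against 8.76% and 17.1% of all genes. Ppara, a fatty acid receptor, had the largest difference in both muscles (-2.14, adjusted p = 0.313, in soleus and -1.34, adjusted p = 0.324, in TA), with WT soleus arrays widely spread (8.97 ± 1.66, SD, n = 3). After it came Sirt3, a mitochondrial deacetylase, in soleus (-0.64, adjusted p = 0.169) and Ppard in TA (-0.80, adjusted p = 0.0792). Ppargc1a, the coactivator PGC-1 alpha, differed by -0.28 (SE 0.44) and 0.05 (SE 0.44). Between WT muscles 3 of 30 passed (10%, against 10.8% of all genes): Esrrg, an oestrogen-related receptor, was higher in soleus (1.78, adjusted p = 0.00231), and Ppard (-0.93, adjusted p = 0.0235) and Mef2a (-0.39, adjusted p = 0.0375) were lower. In KO 5 passed (16.7%, against 8.97%), among them Esrrg (2.10), Prkaa2 (-0.89) and Pprc1 (-0.62); another was Mterf1a, whose signals lay near the floor.

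The genes whose level followed the members most closely over the 12 arrays were sought among all other genes tested. By Pearson correlation with the mean of the members these were Flad1 (0.97), which makes FAD, Ssx2ip (0.94), Sirt3 (0.94), Hibadh (0.92), a mitochondrial enzyme of valine breakdown, Psmb5 (0.92), a proteasome subunit, and Etfbkmt (0.92), a methyltransferase of the electron transfer flavoprotein. Among the members, Ndufs8 (0.97), Ndufa3 (0.97), Cox4i1 (0.94) and Atp5o (0.93) followed the common mean closely, and Cox7a2l ran against it (-0.73). These values rank 12 arrays that share their scaling and their group differences.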

How the data were processed

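Total RNA of the 12 muscle samples was hybridised as biotin-labelled cRNA to one-colour Affymetrix arrays, per the labels' protocols. The authors deposited a table of log2 signal for 45101 probe sets, with values from 0.89 to 16.36. MAS5 appears in the submitters' processing notes with no role. How these values were summarised is not given in the sources used. Groups and replicate numbers came from the sample titles. A platform table gave a single gene symbol to 34958 probe sets and several to 932; the latter were left out, among them 10 that include the symbol of a member.

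Quantile normalization was applied. To be kept, a probe set had to exceed, on 3 or more arrays, that array's 40th percentile, and the brightest per gene in the table as deposited was tested. Tests used limma 3.58.1 in R 4.3.3 on 4 group means over all 12 arrays, with a variance trend, 2-sided, with Benjamini-Hochberg adjustment over 13010 genes and a threshold of 0.05. With 3 arrays against 3 an exact permutation test cannot go below p = 0.1. The median standard error of a group difference was 0.10 for members. The procedure was tested on simulated data with independent noise for each gene and array. These data held no shared shift of the arrays numbered 3, so that test does not cover such a shift. Alternatives were the deposited scaling, median centring, other filters, a pseudocount of 16, mean over probe sets, the replicate block, no trend, array weights, separate fits and arrays left out.

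Members and lists were chosen with earlier results of these data known. The text names, per comparison and complex, up to 4 members past the test by size, or up to 2 of the largest differences where none passed. Isoform pairs are also given, though not every pair in every comparison. For the other lists it names up to 4 genes past the test, or 2 otherwise, and for likeness the 6 nearest genes; further members were chosen after their values were seen. Promoters were matched by the Entrez gene identifier of each member's probe set.

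Deviations from group means correlated between arrays of equal number by 0.35, 0.16 and 0.56 in KO and WT TA, 0.35, 0.14 and 0.59 in the WT muscles and 0.49, 0.43 and 0.59 in the KO muscles, and by 0.43, 0.09 and 0.61 in KO and WT soleus. Between replicates 1 and 2 the correlations were 0.24 and 0.20 in KO and WT TA and 0.35 and 0.22 in the WT muscles. They were 0.27 and 0.29 in KO and WT soleus, and -0.02 and 0.10 in the KO muscles. Only in the KO muscles did replicates 1 and 2 of equal number both correlate more than this. The report gives the replicate block for TA and for soleus against TA, although KO and WT soleus correlated much as TA did. The labels do not give this pairing, and outside the KO muscles these correlations do not settle it for replicates 1 and 2.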

Additional observations from a re-analysis of the deposited data

How the results depend on the processing

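The lower level of the members in KO muscle kept its direction in every alternative run: when each array was left out in turn the median ranged from -0.28 to -0.18 in soleus and from -0.20 to -0.15 in TA, and 66 to 72 members in soleus and 58 to 67 in TA had a lower mean. Without the 4 arrays numbered 3 the soleus median was -0.17. The count past the test was far less steady. In TA, 5 members passed (2.83% of all genes). The table as deposited gave 1 (2.81%), median centring 0 (3.15%) and a fit of only the TA arrays 0 (0.0307%). A filter on mean log2 above 5 gave 8 (5.16%), no variance trend 8 (3.24%) and array weights 9 (3.96%). Without the arrays numbered 3 the count was 0 (0.43%). Leaving out each array gave 0 to 6 (0.653% to 3.2%). In soleus array weights gave 12 (2.77%), and leaving out each array 0 to 1 (0.00769% to 0.231%). With the replicate block, 11 passed in TA (7.01% of all genes) and 4 between the KO muscles (16.9%). Without it these were 5 (2.83%) and 2 (8.97%), so the share of all genes rose as well. The block changed no other count of members by over 1.5 times. For WT soleus against TA, 2 passed with the mean of all probe sets (9.84% of all genes), namely Ndufb3 and Cox6a1. Array weights gave 9 (21.6%) and a fit of only those groups 1 (5.43%). Arrays left out gave 1 to 5 (5.4% to 10.5%). In KO they gave 1 to 3 (4.51% to 9.04%), and array weights gave 4 (12.4%). The interaction kept a count of 0 when each array was left out (0 to 0), and it could not be fitted on fewer than the 4 groups. Its median ranged from -0.07 to 0.03, that of the members in WT, soleus minus TA, from -0.040 to 0.045 and that of the KO muscles from -0.07 to -0.01. With median centring the interaction median was -0.12 and the median of soleus minus TA in WT 0.093, and without the arrays numbered 3 the KO muscle median was 0.00052. The cause of these moves was not tested. Among promoters of members that passed the filter, NRF1 matches stood at 13.8% and YY1 matches at 9.23%.

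With 3 arrays a group and differences mostly under 0.5 on the log2 scale, the number of calls is limited. Ndufa4l2 and Cox6b2, and Coq8b and Mterf1a of the other lists, had signals at or near the floor, where differences cannot be read.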
